A study of Mus musculus with 4 samples.

Results

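The Nrg1 locus held 1 of the 3190 peaks in the list the authors deposited. The peak lay on chromosome 8 at 33309866 to 33310837 of the mouse mm9 build and inside the approximate limits of the gene, with a score of 100.6. It was the only peak whose midpoint fell in the window from 32800000 to 34100000, a stretch of 1.3 Mb that covers Nrg1 and about 100 kb on each side. Chromosome 8 held 133 peaks in all. The gene was taken to lie on the minus strand from about 32.92 to 33.99 Mb, so its 5′ end is the high-numbered one.

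Neuregulin 1, the product of Nrg1, is a growth factor of the epidermal growth factor family. Most of its forms are made as membrane-anchored precursors that are cleaved to release the ligand, which binds the receptor tyrosine kinases ErbB3 and ErbB4 (HER3 and HER4). These pair with ErbB2 (HER2), which has no known ligand of its own, and signal in mammary epithelium and in breast tumours. The gene is long, and several promoters far apart give isoforms that differ at their N-termini. The series title places this ligand and its receptors at the centre of the study.

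The peaks came from FAIRE-seq, in which chromatin is crosslinked with formaldehyde, sheared and extracted with phenol, so that DNA carrying few nucleosomes stays in the aqueous phase and is sequenced. The cells were cancer cells of mice on the FVB background that carry MMTV-PyMT, a transgene in which a mammary tumour virus promoter drives the polyomavirus middle T antigen in mammary epithelium. The hyperglycemic (HyG) cells were isolated from MMTV-PyMT/PANIC mice and the euglycemic (Control) cells from MMTV-PyMT mice, per the source labels, so the glucose state and the mouse line cannot be told apart. Both kinds of cells were freshly isolated, cultured in DMEM with serum and left untreated. The sources used here do not give the age or number of mice or any pooling of them. Each of the 2 conditions gave 1 FAIRE library and 1 input DNA library, 4 libraries in all. The list is tied to no single library, and the sources used here do not say which library served as signal and which as control. With input as the control, a peak is a stretch of open chromatin in the cells; with the other condition as the control, it is a stretch that differs between conditions. The Nrg1 peak is therefore described as a listed peak, with no condition assigned to it, no comparison of the conditions and no replicates. The list holds no expression values, so the cell label was not checked against marker genes, and read depth is unknown.

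The Nrg1 peak spanned 972 bp. Its midpoint lay 0.68 Mb from the 5′ limit of the gene and 0.39 Mb from the 3′ limit, 63.5% of the way along the gene from its 5′ end. No peak was listed at or near the 5′ limit itself: the nearest on the upstream side lay 0.79 Mb beyond it, and the nearest on the gene side was the Nrg1 peak. Whether the peak sits in an intron, in an exon or at one of the internal start sites was not determined, since no mm9 annotation was used here. The gene limits are given to 0.01 Mb, far finer than the distance from the peak to either of them.

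In RefSeq's gene table of the GRCm38.p6 assembly, used for names and order only, 10 other genes overlap Nrg1 or lie within 100 kb of it. They are 6 long non-coding RNA genes, such as Gm33223 and Gm26578, beside 2 pseudogenes (Gm5117 and Gm46076), the small nuclear RNA gene Gm22140 and 1 predicted protein-coding gene, Gm3985. All but Gm5117 overlap Nrg1. The next protein-coding genes with an established name are Fut10, which encodes a fucosyltransferase, on the 3′ side of Nrg1, and Wrn, which encodes a RecQ-family DNA helicase, on the 5′ side. The Nrg1 peak was not placed relative to any of the 10 genes.

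The peak stood alone in a long peak-free stretch. The nearest peak towards the 3′ end of the gene lay at 32483279 to 32484414 (1136 bp, score 90.6), separated from the Nrg1 peak by 825 kb. Its midpoint lay 316 kb outside the window. The nearest peak beyond the 5′ end lay at 34784543 to 34785370 (828 bp, score 90.96), separated by 1474 kb and with its midpoint 685 kb outside the window. Both flanking peaks scored lower than the Nrg1 peak, and neither is close to the window's edge. From one flanking peak to the other, 2.30 Mb held the Nrg1 peak and no other.

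Gaps of this length were not rare on the chromosome. Over 132 gaps between neighbouring peaks of chromosome 8 the median was 439 kb, 44 gaps (33.3%) were at least as long as the one on the 3′ side, and 25 (18.9%) at least as long as the one on the 5′ side. Among 131 peaks with a neighbour on each side, the stretch held by the Nrg1 peak alone ranked 40th from the longest, against a median of 1.25 Mb. The stretch was longer than the median one, and 39 peaks of the chromosome sat in longer ones.

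**Figure D1:**
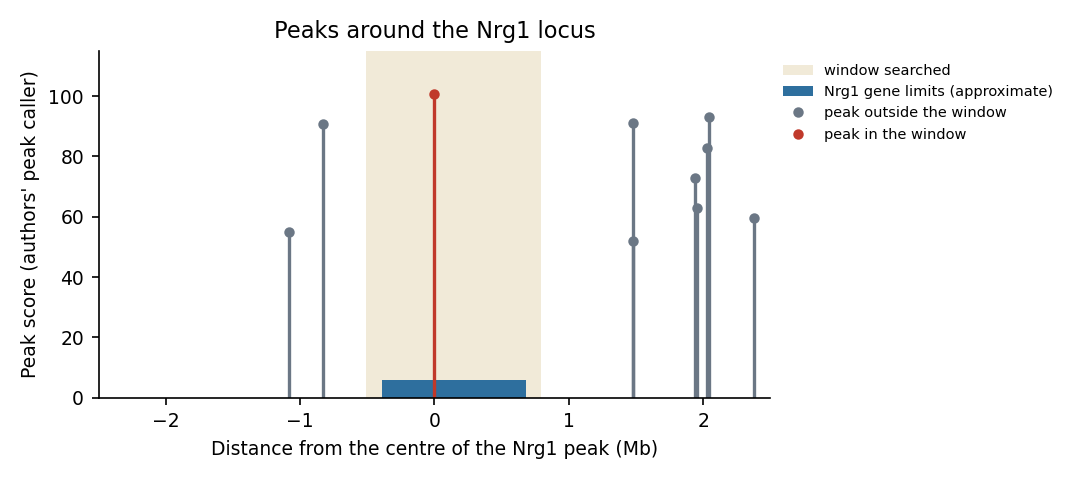
Score of each listed peak (vertical axis, the authors' peak caller's value) against its distance in Mb from the centre of the Nrg1 peak (horizontal axis), with the searched window shaded and the approximate gene limits as a bar along the base. The red peak, at 100.6, is the only one in the window, with 2 peaks to its left and 7 to its right within 2.5 Mb, all of lower score.

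The number of peaks at Nrg1 was that of the median window of the chromosome. A count of 1 peak in 1.3 Mb is 0.77 peaks per Mb, with an exact Poisson interval at 95% from 0.02 to 4.29. The rest of chromosome 8, measured from its first peak to its last, held 132 peaks in 126.2 Mb, or 1.05 per Mb. The ratio of the densities was 0.74, with a 95% exact binomial interval from 0.02 to 4.17. This interval covers counting error only and spans 1, so neither an excess nor a lack of peaks was detectable from 1 peak. Among peaks at or above the median score of the list the ratio turned to 1.41 (0.04 to 8.11), and at or above the upper quartile to 2.86 (0.07 to 17.0), with the same single peak at Nrg1 and fewer elsewhere. Within the gene limits alone the density was 0.93 peaks per Mb and the ratio 0.90 (0.02 to 5.08). The covered share of sequence was 0.0748% in the window and 0.0827% over the rest of the chromosome.

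Windows of the same length, laid end to end from the Nrg1 window outward, gave 96 others wholly within that span. Of these, 57 (59.4%) held at least as many peaks as the Nrg1 window: 22 held the same number and 35 held more. The other 39 held none. Their mean was 1.34 ± 1.61 (SD over 96 windows) and their median 1, the number found at Nrg1. Over 1808 other windows of all autosomes, 63.5% held at least 1 peak and the mean was 1.72 ± 2.01 (SD over windows).

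The surroundings of the Nrg1 window were uneven. The adjoining window on the 5′ side of the gene, 34100001 to 35400000, held 6 peaks, whose scores had a median of 77.8 and reached 92.89. That number was shared with the window from 23700001 to 25000000 and exceeded on chromosome 8 only by the 8 peaks from 108200001 to 109500000 on this grid. Its 6 peaks began 685 kb beyond the edge of the Nrg1 window and lay in close pairs. The first pair, 34784543 to 34785370 and 34790830 to 34791435, lay 5.46 kb apart. The pairs that began at 35252999 and 35339115 lay 8.185 kb and 10.555 kb apart. The adjoining window on the 3′ side held 2 peaks, with scores of 54.98 and 90.6, and the 2 windows beyond that held none. The remaining windows with the most peaks, 5 each, lay at 47100001 to 48400000 and 129000001 to 130300000. The Nrg1 window thus held fewer peaks than either of its adjoining windows. Of the 96 other windows, 35 (36.5%) held more peaks than it, so nothing about the locus is read from this difference.

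**Figure D2:**
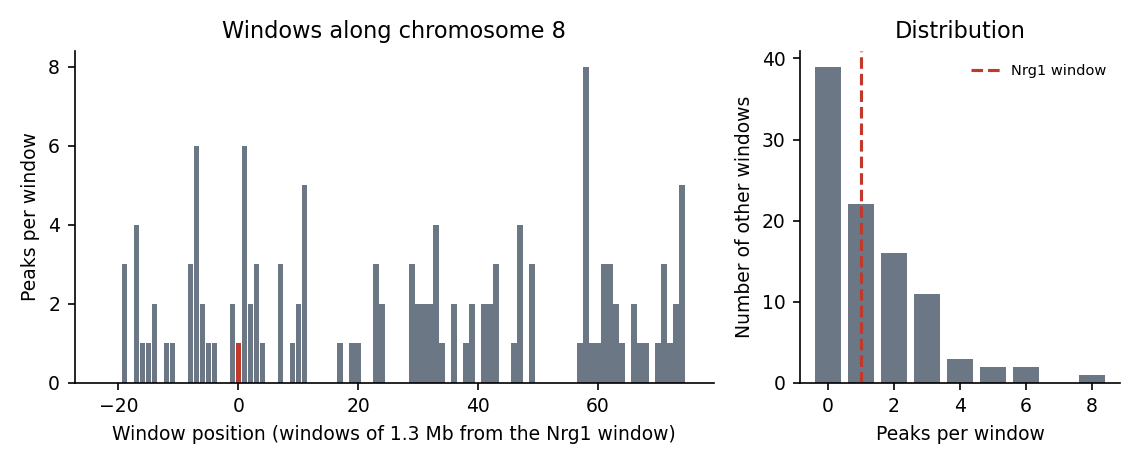
Left, number of peaks in each window of 1.3 Mb along chromosome 8 (vertical axis) by position counted in windows from the Nrg1 window, which is red (horizontal axis). Right, number of other windows (vertical axis) by peaks per window (horizontal axis), with the Nrg1 window's 1 peak as a dashed line: 39 windows held none, 22 held 1 and 35 held more.

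The score of the Nrg1 peak was high for its chromosome, although many peaks of the list matched it. The score is the authors' value per peak and ranks peaks within this list only. At 100.6 it was the 11th highest of the 133 on chromosome 8, where scores ran from 50.03 to 180.28 with a median of 65.76 and an upper quartile of 82.6. The 11 peaks with at least that score, the Nrg1 peak included, were 8.27% of the chromosome's peaks. Over all 3189 nuclear peaks, 378 (11.9%) scored at least as high, and the highest nuclear score was 246.65. The peak next above it on chromosome 8 scored 101.6 (23601497 to 23602682) and the one next below scored 99.68 (27832829 to 27833745), so its rank rests on small steps in score.

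The peak was also wider than most. Its 972 bp ranked joint 20th of 133 on chromosome 8, where the median was 764 bp and the upper quartile 893 bp. Width and score come from the same caller and are not independent measures. The 11 other chromosome 8 peaks within 50 bp of its width had a median score of 84.73 (quartiles 78.2 and 90.3), and 2 of them scored at least 100.6. Among 385 such peaks over all autosomes the median was 72.94 and 67 (17.4%) scored at least as high. Set beside peaks of its own width, the Nrg1 peak was still above the upper quartile of score.

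A minority of peaks scored as high as the one at Nrg1, whether isolated or not. On chromosome 8, 16 peaks (12.0%), the Nrg1 peak included, lay 825 kb or more from any other. The 15 others had a median score of 63.56 and a median width of 664 bp, and 14 of them scored between 50.03 and 84.1. The exception, at 131190448 to 131191564 with a score of 180.28 and a width of 1117 bp, is the last peak of the chromosome and has a neighbour on 1 side only. This limit of distance is the Nrg1 peak's own, and 2 peaks with higher scores fell just short of it: 74660428 to 74661071 (score 104.55, 823 kb from its neighbour) and 83485839 to 83486698 (119.78, 785 kb). A score of 100.6 or more was thus reached by 1 of the 15 (6.67%), beside 9 of 117 (7.69%) less isolated peaks of chromosome 8. Over all autosomes it was reached by 24 of 244 other peaks at least as isolated (9.84%), beside 351 of 2912 (12.1%) less isolated ones. These shares are near those over all peaks given above, so nothing about lone peaks is read from them.

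**Figure D3:**
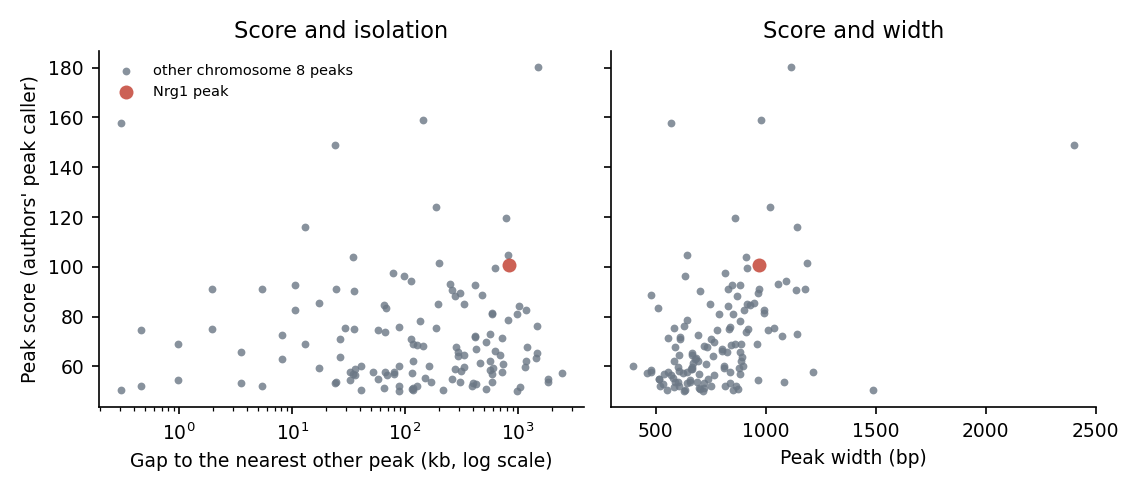
Score of each chromosome 8 peak (vertical axis, the authors' peak caller's value) against the gap to its nearest other peak in kb on a log axis (left) and against its width in bp (right). The Nrg1 peak, in red, sits at 825 kb, 972 bp and 100.6, with 10 of the other 132 peaks above it in score.

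Windows gave like shares. Of the other chromosome 8 windows, 22 held exactly 1 peak, with a median score of 65.91 (quartiles 58.1 and 81.5), and in 2 of them (9.09%) that peak scored at least 100.6. Among 391 such windows over all autosomes the median was 63.19, and 41 (10.5%) held a peak that scored at least as high as the one at Nrg1. Both shares are close to the 8.27% of all chromosome 8 peaks and the 11.9% of all autosomal peaks with such a score. All of these are values of 1 list, whose peaks are not replicates, and they were not tested.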

How the data were processed

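The authors deposited 1 peak list with a chromosome, start, end, name and score per peak. The submitters' processing notes name MACS as the peak caller and mm9 as the build. The name of the list carries tags that read as a release of MACS, SOLiD sequencing and barcode numbers. The barcodes were not matched to libraries here. The aligner, the caller's settings, duplicate filters and the pairing of libraries were not given in the sources used here. The deposited score is the authors' value per peak. The sources used here do not state its scale, and the lowest value was 50.01. Starts count from 0 in the list and are printed from 1.

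Peaks were assigned to the Nrg1 window by midpoint. The window and gene limits are approximate mm9 positions set for the search. Density used the span between the first and the last peak, since no mm9 chromosome length was used. Windows of 1.3 Mb wholly within that span were compared, on chromosome 8 from the Nrg1 window outward and on the other autosomes from the first peak. Intervals are exact Poisson for counts and exact binomial (Clopper-Pearson) for ratios, and cover counting error only. No test between conditions was possible. Named were all peaks in the window, the nearest peak beyond each edge, the 5 windows with the most peaks, and genes within 100 kb of Nrg1 in the GRCm38.p6 table; other chromosome 8 peaks named were chosen after their values were seen. The ErbB ligands and receptors were not analysed here, as the gene table is of another build. No Nrg1 sequence was used here. Members and lists were chosen with earlier results of these data known. Functions were tested on simulated data. Values were computed in Python 3.11.15 with pandas 2.3.3, numpy 2.4.6 and scipy 1.17.1, and plots drawn with matplotlib 3.10.9.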

Additional observations from a re-analysis of the deposited data

How the results depend on the processing

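No paired analysis was possible because the list has no columns for single libraries and each group has only 1, so no library could be left out either. Widening the window by 500 kb on each side raised the number of peaks from 1 to 2, with a median score of 95.6 and a median width of 1054 bp. No other alternative run changed the number of peaks, and the 2 on score minimums and the one on the gene limits left its score and width as they were. The density ratio of 0.74 ran from 0.58 against all autosomes to 1.41 among peaks at or above the median score of the list and 2.86 among those at or above the upper quartile. The direction turned there because the score minimum kept the Nrg1 peak and removed others. Each of these intervals spanned 1. The number of windows with at least as many peaks was 57 of 96. It was 1512 of 2525 (59.9%) in steps of 50 kb, 1148 of 1808 (63.5%) over all autosomes and 43 of 96 (44.8%) at or above the median score. The alternative with mm9 chromosome lengths was not run. With depth unknown, weaker peaks at Nrg1 below the caller's threshold were not detectable.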
